A study of Sus scrofa with 14 samples.

Results

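Adipose tissue from the greater omentum (GOM, a visceral depot) and from the upper layer of backfat (ULB, a subcutaneous depot) was compared in wild boars (WB), with expression set against chromatin compartment gene by gene. The depots came from female wild boars aged 2 years that had been taken into captivity and fed alike, with no treatment or genetic change named, and each depot was measured in 2 RNA-seq and 2 Hi-C libraries. These 8 libraries are part of 14 used from the series, the others being from Bama pigs, a small domestic breed. The RNA was extracted from tissue, whereas the nuclei for Hi-C came from the layer of the dissociated tissue that holds adipocytes, so both assays need not cover the same cells. Genes entered when their TPM (a level corrected for gene length and library size) was above 0.1 in both libraries of at least 1 depot. This held for 16183 of 21280 genes, of which 11589 could be placed on an autosome, with start sites in 10076 bins of 20 kb. Depth was similar in the RNA-seq libraries, from 14095354 to 17402255 estimated counts. All differences below are GOM relative to ULB.

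Interphase chromatin is divided into compartment A, which is rich in genes and mostly transcribed, and compartment B, which is poor in genes and mostly silent. The assignment comes from the first principal component (PC1) of the Hi-C contact matrix. Here a positive PC1 stands for A, a negative PC1 for B, and the size of PC1 grades how strongly a bin belongs to either. Visceral fat is covered by mesothelium and derives in part from lateral plate mesoderm, while dorsal subcutaneous fat derives largely from somitic mesoderm, and fat depots keep developmental transcription factors of their origin into adult life. The comparison asks in which of these genes the depot difference in expression went along with a difference in compartment, and in which it did not.

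PC1 correlated at 0.9775 between both GOM libraries, at 0.9818 between both ULB libraries and at 0.9656 to 0.9748 between depots, over 113298 bins. On chromosome 10 the correlation between both GOM libraries was 0.603, against 0.9818 on the other autosomes together. Between both ULB libraries it was 0.96 there. The absolute PC1 difference between depot means, of 2 libraries each, had a 95th percentile of 13.16. For the difference between single replicate libraries it was 14.27. Means of 2 libraries vary less than single libraries, so these values cannot be compared directly. The value of 14.27 serves as a threshold below, where it is stricter for means than for single libraries. The depot test of limma, with Benjamini-Hochberg adjustment, called 0 bins (0.0%), while 12946 bins (11.4%) had an unadjusted p below 0.05. This call changed with the fit, since limma called 502 bins with the replicate number as a block, 869 without GOM replicate 2 and 97 without ULB replicate 2. A change of compartment is given below without a test, in 2 grades that were chosen after this result. A bin was switched when both GOM libraries had one sign and both ULB libraries the other, and shifted when the depots did not overlap in PC1 and their means differed by at least 14.27. Switched bins covered 23.2 Mb with A in GOM (1.02% of bins) and 22.02 Mb with A in ULB (0.972%), of 2265.77 Mb in all, and 1.56% of bins were shifted towards GOM and 2.16% towards ULB. Switched bins numbered 2262 and shifted bins 4206 in all. With 1 library left out there were fewer libraries to meet each condition, and switched bins rose to 4907 without GOM replicate 1, 4248 without GOM replicate 2, 3767 without ULB replicate 1 and 4732 without ULB replicate 2. Shifted bins rose to 8861 without GOM replicate 2 and 7237 without ULB replicate 2.

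In expression, edgeR's quasi-likelihood test with Benjamini-Hochberg adjustment called 318 genes (1.97% of the genes tested), 197 higher in GOM (1.22%) and 121 higher in ULB (0.748%), at an adjusted p below 0.05 and a more than 2-fold difference. Of the placed genes, 152 were higher in GOM (1.31%) and 100 in ULB (0.863%). Without GOM replicate 1 the test called 46 genes in all, 36 higher in GOM and 10 higher in ULB, without GOM replicate 2 it called 55 higher in ULB, without ULB replicate 1 it called 75, and DESeq2 called 1318 genes on all 4 libraries. The mesothelial genes summed to 631.4 and 197.2 TPM in the GOM libraries against 22.69 and 5.264 in ULB. The adipocyte genes summed to 13410 and 21930 TPM in GOM against 26820 and 25930 in ULB, and 0 of 19 were called. Skeletal muscle genes stood out in ULB replicate 1 (336.7 TPM) and GOM replicate 2 (86.89 TPM), against 7.706 in GOM replicate 1 and 10.51 in ULB replicate 2. In such bulk tissue, fewer cells of a type and less RNA per cell cannot be told apart, and the part of cell composition in the results below was not tested.

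Across the 11589 genes, expression and compartment moved in the same direction weakly. Spearman's rho between the log2 fold change and the PC1 difference was 0.136, and Pearson's r was 0.196. These are descriptions across genes, which share libraries and bins and are not replicates. Over deciles of the PC1 difference, the lowest and the highest median log2 fold change lay at the ends. In the decile of genes with the lowest PC1 difference (-33.4 to -4.88), the median log2 fold change was -0.264, and 43 of 1159 genes (3.71%) were called higher in ULB against 7 (0.604%) in GOM. In the decile with the highest PC1 difference (7.69 to 30.3), the median was 0.179, and 44 of 1159 genes (3.8%) were called higher in GOM against 5 (0.431%) in ULB. The deciles between them had medians from 0.00741 to 0.13.

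**Figure D1:**
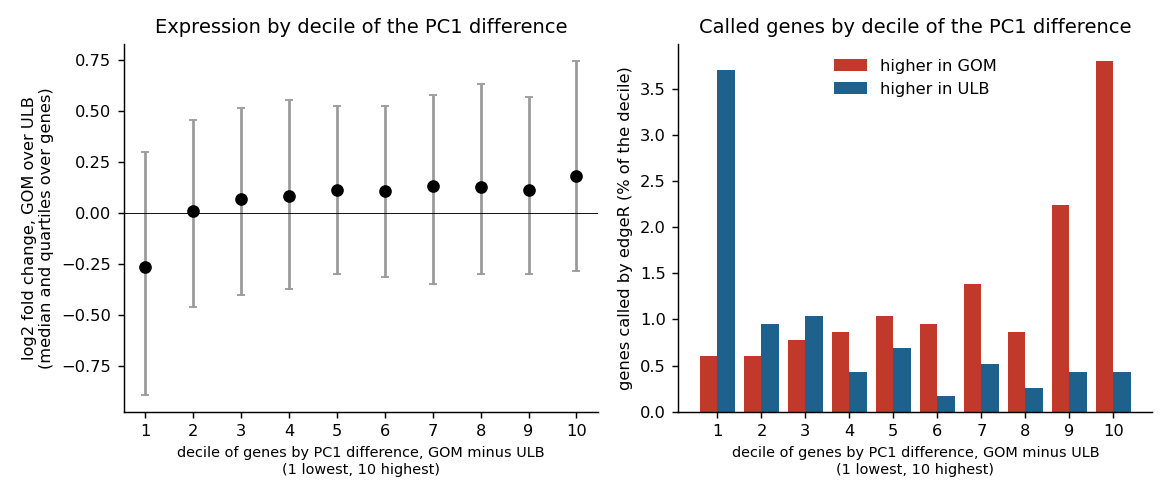
Left, the median log2 fold change of expression (points; bars are the quartiles over genes) in each decile of genes by PC1 difference, and right, the percentage of genes of each decile called by edgeR as higher in GOM (red) or in ULB (blue). The lowest decile has a median of -0.264 and 3.71% of its genes called higher in ULB, and the highest decile a median of 0.179 and 3.8% called higher in GOM.

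The rank correlation was higher in compartment B than in A. Among the 9840 genes whose bin was in A in all 4 libraries rho was 0.076, among the 1002 genes in B in all 4 it was 0.356, and among the 747 genes whose sign differed between libraries it was 0.316. Genes in constant B also had a lower median log2 fold change (-0.249) than genes in constant A (0.105). Because the log2 fold change itself rose with the mean PC1 of the bin (rho 0.201), the relation was also computed given the mean PC1, and rho was then 0.126. Not given the mean PC1, rho was 0.117 without the 252 genes called by edgeR and 0.592 among the called genes alone. The called genes were chosen by the size of their fold change, so the last value cannot be compared with the others. Pairing the PC1 difference of one replicate number with the expression difference of the other gave 0.06 and 0.144. Within the same number, rho was 0.088 for number 1 and 0.125 for number 2.

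By autosome, rho was above 0 on 17 of 18 and above 0.2 on 10, with a median of 0.211. Chromosome 9 had the highest value (0.357 over 604 genes) and chromosome 6 the lowest (-0.01 over 1258 genes). Given the mean PC1 of the bin, rho was above 0 on all 18 autosomes. Chromosome 10, whose PC1 correlated at 0.603 between both GOM libraries, had a rho of 0.083 over 262 genes.

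**Figure D2:**
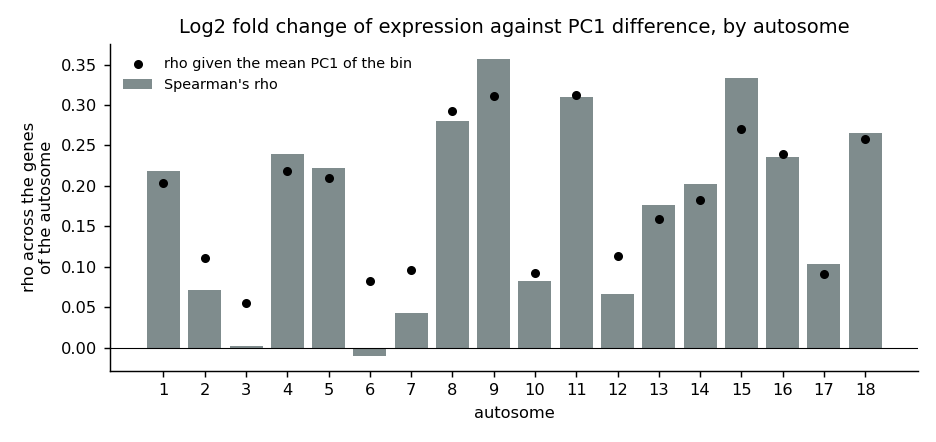
Spearman's rho across the genes of each autosome between the log2 fold change of expression and the PC1 difference (bars), and the same given the mean PC1 of the bin (points). Bars run from -0.01 on chromosome 6 to 0.357 on chromosome 9, and 17 of 18 are above 0.

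Genes in switched bins tended to be higher in the depot where the bin was in A. The 65 genes whose bin was A in GOM and B in ULB (0.561% of placed genes) had a median log2 fold change of 0.238, against 0.0746 over all placed genes, and 40 of 65 were above 0 (61.5%, against 54.7%). Of these 65, 5 were called higher in GOM (7.69%, against 1.31% of all placed genes) and 0 higher in ULB. The 49 genes whose bin was A in ULB and B in GOM (0.423%) had a median of -0.881, with 40 of 49 below 0 (81.6%, against 45.3%). Of these, 1 was called higher in ULB (2.04%, against 0.863%) and 0 higher in GOM. Without a test, both libraries of the A depot lay above both of the B depot, with a more than 2-fold difference between depots, in 20 genes on the GOM side (30.8%, against 11.0% of all placed genes) and in 19 on the ULB side (38.8%, against 7.24%). The opposite, higher in the B depot, held for 4 of the 65 genes and 2 of the 49.

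The 183 genes in bins shifted towards GOM (1.58% of placed genes) had a median log2 fold change of 0.189, with 117 above 0 (63.9%, against 54.7% of all placed genes). Of these, 17 were called higher in GOM (9.29%, against 1.31%) and 1 higher in ULB (0.546%, against 0.863%). The 68 genes in bins shifted towards ULB (0.587%) had a median of -1.12, with 63 below 0 (92.6%, against 45.3%). Of these, 12 were called higher in ULB (17.6%, against 0.863%) and 0 in GOM. Of the 251 genes in shifted bins, 121 lay on chromosome 1, which held 1073 of the placed genes. On chromosomes 11, 12, 17 and 18, with 212, 746, 366 and 250 placed genes, 0 lay in shifted bins. PC1 was computed on each chromosome separately, so its units need not match between chromosomes, where the same threshold was used. With PC1 scaled by the chromosome SD, 38 called genes were shifted or switched in the direction of expression, against 31 without scaling. Of those 31 genes, 29 remained so. In the 6874 genes whose depots overlapped in PC1, 60 were called higher in GOM (0.873%) and 48 in ULB (0.698%).

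Read from the side of expression, 31 of the 252 called genes changed together with the compartment, 6 in switched bins and 25 in bins that were shifted without being switched. Counting the switched genes that were also shifted, 29 lay in shifted bins. In the other direction, 1 called gene lay in a bin shifted the opposite way and 0 in bins switched the opposite way. By the looser condition that the depots do not overlap in PC1, 80 of 152 GOM genes (52.6%) lay in bins higher in GOM and 12 in bins higher in ULB, against 26.2% and 14.5% of all placed genes. Of the 100 ULB genes, 40 (40.0%) lay in bins higher in ULB and 12 in bins higher in GOM. No compartment change was seen for 205 called genes, 123 of the GOM genes (80.9%) and 82 of the ULB genes (82.0%), against 91.7% of all placed genes. Their bins kept one sign in all 4 libraries and differed by less than 14.27. The bins of the remaining 15 called genes differed in sign between libraries without meeting either condition. The called gene nearest above the threshold was STEAP2 (a PC1 difference of -14.45), and the nearest below was RSPO1 (13.82).

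The leading counts depended on which libraries were used. Without GOM replicate 1, 4 genes changed together in switched bins (6 with all libraries), 9 in shifted bins (29 with all libraries) and 20 were called with no compartment change. Without GOM replicate 2 the genes that changed together in switched bins were 16 and those with no compartment change 131, without ULB replicate 1 there were 11 in switched bins, and without ULB replicate 2 there were 14. With DESeq2, 23 genes changed together in switched bins against 2 in the opposite way, and 51 in shifted bins against 4. Of the 31 genes, 7 remained called by edgeR without GOM replicate 1, 22 without GOM replicate 2, 25 without ULB replicate 1 and 25 without ULB replicate 2. The mesothelial and muscle sums given above differ between these libraries too, and their part was not tested.

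**Figure D3:**
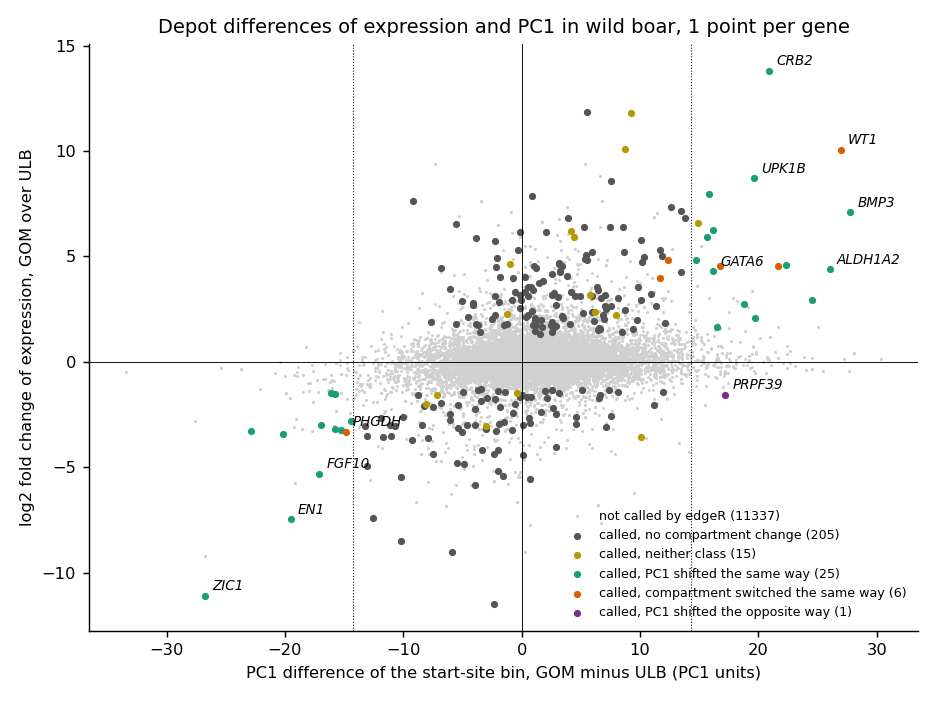
The PC1 difference of the start-site bin (GOM minus ULB, PC1 units) against the log2 fold change of expression (GOM over ULB) for 11589 genes, with the 252 genes called by edgeR coloured by class and dotted lines at a PC1 difference of 14.27 in either direction. The 31 genes that changed together lie in the upper right and lower left, PRPF39 is the 1 gene called in a bin shifted the opposite way, and the 205 genes with no compartment change lie between the lines. Fold changes of genes with 0 counts in a depot, such as CRB2 and ZIC1, depend on the prior count.

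Of the 6 called genes in switched bins, 5 were in A in GOM only. They are shown first, with the 250 bases before the annotated gene start on the Sscrofa 11.1 reference (RefSeq annotation), since these are the sequences at the places where both readouts changed. Bases are given 5′ to 3′ on the strand of the gene in lower case, and CpG dinucleotides, the sites of DNA methylation, are in capitals. The regions are chr2:28411217-28411466 (+) for WT1, chr4:28176332-28176581 (-) for PKHD1L1, chr1:99810935-99811184 (-) for MYO5B, chr16:55595203-55595452 (-) for WWC1, chr8:37936562-37936811 (+) for NIPAL1 and chr4:101478145-101478394 (-) for PHGDH.
WT1: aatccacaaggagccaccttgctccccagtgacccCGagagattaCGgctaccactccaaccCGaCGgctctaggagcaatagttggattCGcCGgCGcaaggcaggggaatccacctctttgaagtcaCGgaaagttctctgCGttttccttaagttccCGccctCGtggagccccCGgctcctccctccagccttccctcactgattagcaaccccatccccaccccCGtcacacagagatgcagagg
PKHD1L1: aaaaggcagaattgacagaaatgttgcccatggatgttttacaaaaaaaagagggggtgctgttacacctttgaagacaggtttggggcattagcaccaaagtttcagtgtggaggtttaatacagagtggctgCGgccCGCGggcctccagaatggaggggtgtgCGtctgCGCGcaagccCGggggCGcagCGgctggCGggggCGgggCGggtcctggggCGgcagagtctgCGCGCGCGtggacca
MYO5B: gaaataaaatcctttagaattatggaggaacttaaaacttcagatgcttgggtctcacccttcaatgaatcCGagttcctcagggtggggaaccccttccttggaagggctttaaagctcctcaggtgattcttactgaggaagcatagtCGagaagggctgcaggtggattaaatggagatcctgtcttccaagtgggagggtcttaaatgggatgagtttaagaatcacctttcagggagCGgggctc
WWC1: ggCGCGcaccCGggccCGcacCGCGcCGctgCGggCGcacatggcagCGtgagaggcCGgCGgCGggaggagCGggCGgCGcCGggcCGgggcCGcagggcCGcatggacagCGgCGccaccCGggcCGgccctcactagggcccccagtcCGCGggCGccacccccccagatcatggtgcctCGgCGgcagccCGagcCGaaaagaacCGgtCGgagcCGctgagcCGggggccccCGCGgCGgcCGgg
NIPAL1: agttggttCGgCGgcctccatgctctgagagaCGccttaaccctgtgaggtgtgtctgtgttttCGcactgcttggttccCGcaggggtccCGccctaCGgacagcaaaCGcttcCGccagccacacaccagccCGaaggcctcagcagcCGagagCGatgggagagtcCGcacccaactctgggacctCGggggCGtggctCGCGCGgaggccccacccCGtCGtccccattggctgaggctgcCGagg
PHGDH: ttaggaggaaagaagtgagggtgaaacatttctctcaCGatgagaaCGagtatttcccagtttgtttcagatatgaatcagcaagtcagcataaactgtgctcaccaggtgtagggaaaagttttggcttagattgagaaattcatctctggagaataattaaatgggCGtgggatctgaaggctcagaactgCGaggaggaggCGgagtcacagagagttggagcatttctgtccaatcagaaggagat
The 6 sequences differ widely in CpG content, with 39 dinucleotides for WWC1, 21 for NIPAL1, 17 for PKHD1L1, 13 for WT1, 5 for PHGDH and 3 for MYO5B. The median over all placed genes was 16, with quartiles of 7 and 24, so WWC1 lies above and PHGDH and MYO5B below the middle range. The motif AGATAA, read by GATA factors, was searched on both strands and was in 0 of the 6 windows, and in 2 of the 31 windows of the genes that changed together, against 6.34% of all placed genes.

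The genes, as annotated on Sscrofa 11.1, are WT1 (ENSSSCG00000013316, chr2:28411467-28456007), PKHD1L1 (ENSSSCG00000006025, chr4:28023448-28176331), MYO5B (ENSSSCG00000004511, chr1:99418242-99810934), WWC1 (ENSSSCG00000035456, chr16:55418391-55595202), NIPAL1 (ENSSSCG00000037950, chr8:37936812-37963492) and PHGDH (ENSSSCG00000006717, chr4:101445977-101478144). WT1, a transcription factor of the mesothelium and the developing kidney and gonad, had the lowest unadjusted p for PC1 among the called genes in switched bins (limma, unadjusted p = 6.6e-05, adjusted p = 0.134). Its PC1 was 19.9 and 21.0 in the GOM libraries and -5.41 and -7.61 in the ULB libraries. Its TPM was 72.9 and 19.9 in GOM against 0 and 0.103 in ULB, where 2 counts were seen (edgeR, adjusted p = 0.00907). The switched stretch around its start ran over 12 bins or 240 kb. The neighbouring EIF3M, a subunit of translation initiation factor 3, lay in the same switched stretch with TPM of 182 and 188 in GOM and 190 and 217 in ULB (log2 fold change 0.06 ± 0.24 SE).

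PKHD1L1, which encodes a large receptor-like membrane protein, had a PC1 of 3.85 and 8.24 in GOM and -6.16 and -5.12 in ULB. Its TPM was 34.8 and 17.0 in GOM against 1.89 and 1.78 in ULB (log2 fold change 3.97 ± 0.44 SE, edgeR, adjusted p = 0.0133). MYO5B, a myosin motor of vesicle transport in polarized epithelia, had a PC1 of 10.2 and 8.79 in GOM and -18.0 and -6.40 in ULB, and a TPM of 24.6 and 12.9 against 1.22 and 0.554 (4.53 ± 0.51, adjusted p = 0.0133). WWC1, a scaffold protein of the Hippo pathway, had a PC1 of 5.08 and 1.99 in GOM and -14.3 and -12.1 in ULB, and a TPM of 22.3 and 9.38 against 0.882 and 0.605 (4.55 ± 0.51, adjusted p = 0.0133). NIPAL1, a magnesium transporter, had a PC1 of 10.6 and 10.2 in GOM and -2.38 and -1.46 in ULB, and a TPM of 11.7 and 3.19 against 0.260 and 0.330 (4.85 ± 0.69, adjusted p = 0.0285). These genes were chosen by a depot difference in both readouts, so the separation of the depots follows from the choice. GOM replicate 1 was the higher of the GOM pair in TPM each time. Without GOM replicate 1 the adjusted p of the 4 genes was 0.0713 to 0.104, while that of WT1 was 0.0445.

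PHGDH, the enzyme that starts serine synthesis from a glycolytic intermediate, was the called gene in a bin that was A in ULB and B in GOM. Its PC1 was -7.14 and -13.5 in GOM and 3.13 and 5.96 in ULB. Its TPM was 5.98 and 4.82 in GOM against 60.8 and 61.9 in ULB (log2 fold change -3.32 ± 0.26 SE, edgeR, adjusted p = 0.00683), the smallest error of the 6 genes.

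**Figure D4:**
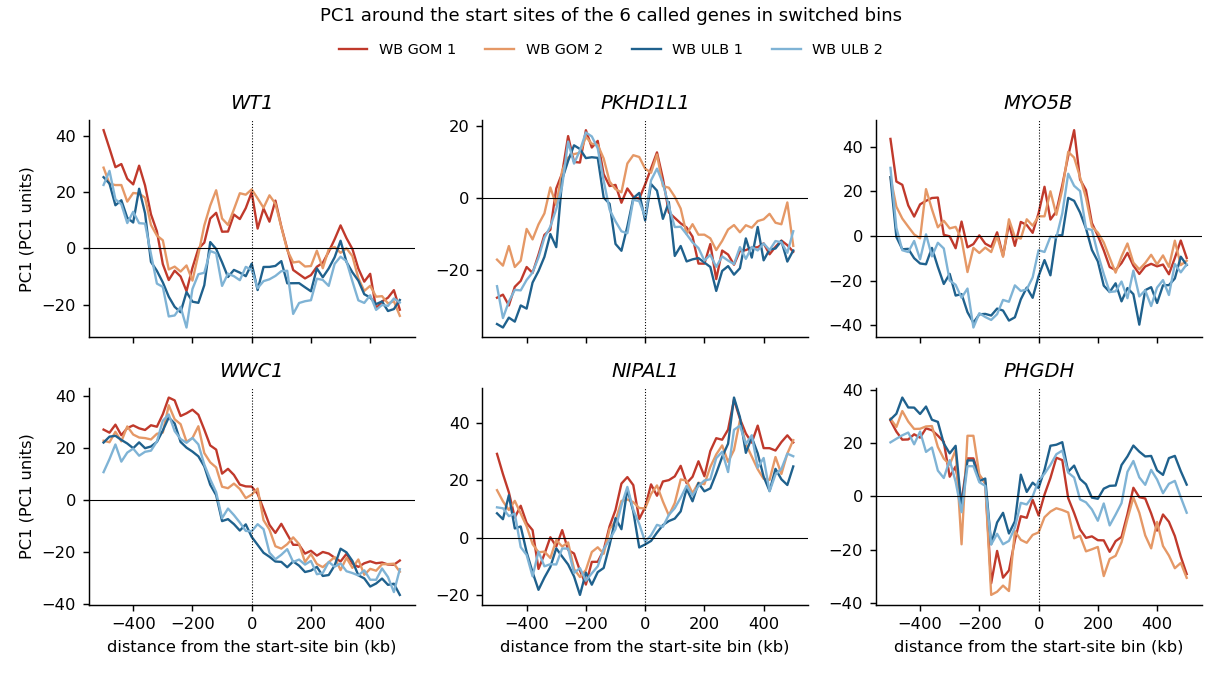
PC1 in 20-kb bins within 500 kb of the start-site bin of the 6 called genes in switched bins, 1 line per WB library (GOM red and orange, ULB blue). Contiguous switched bins span 240 kb at WT1, 140 kb at WWC1, 100 kb at MYO5B, 40 kb at PHGDH and 20 kb at PKHD1L1 and NIPAL1.

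The other 14 genes that were higher in GOM together with PC1 lay in shifted bins, and 8 of the 14 were in A in all 4 libraries. ALDH1A2, which makes retinoic acid, had a PC1 of 34.1 and 28.4 in GOM against 1.17 and 9.22 in ULB, and a TPM of 138 and 101 against 5.22 and 7.79 (log2 fold change 4.39 ± 0.30 SE, edgeR, adjusted p = 0.00671). It lies in a run of 30 shifted bins, chr1:113780001-114380000, with AQP9 and POLR2M. BMP3, a secreted member of the BMP family, had a PC1 of 7.80 and -6.15 in GOM against -27.8 and -26.1 in ULB, and a TPM of 34.5 and 19.0 against 0.0810 and 0.368 (7.10 ± 0.59, adjusted p = 0.00729), in a run of 26 bins. GATA6, a zinc finger transcription factor of visceral mesoderm, had a PC1 of 21.9 and 18.3 against 8.34 and -0.462, and a TPM of 42.5 and 21.7 against 1.94 and 1.69 (4.30 ± 0.38, adjusted p = 0.00802). GPM6A, a membrane glycoprotein known from neurons, moved from a PC1 of -20.3 and -13.6 in ULB to -0.866 and -1.66 in GOM, with a TPM of 1.95 and 2.53 against 170 and 76.7 (5.94 ± 0.42, adjusted p = 0.00683). C3, the central complement protein, had the highest level, with a TPM of 874 and 433 in GOM against 12.2 and 41.7 in ULB, and a PC1 of 42.4 and 47.1 against 27.1 and 33.0 (4.81 ± 0.65, adjusted p = 0.024).

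CRB2, a polarity protein of epithelia, lay in A throughout, with a PC1 of 63.2 and 57.3 in GOM and 37.7 and 40.9 in ULB. Its TPM was 26.3 and 8.31 in GOM and 0 in both ULB libraries, which makes it at least 640-fold higher in GOM with 3 counts per library as the floor (edgeR, adjusted p = 0.00907). UPK1B, a uroplakin that mesothelium also carries, had a PC1 of 26.4 and 20.0 against -0.423 and 7.56, and a TPM of 104 and 52.8 against 0.381 and 0 (adjusted p = 0.00856). LGI2, CXADR, ST6GAL2, CGNL1, GCNT1, PTGS1 and ARAP2 complete the group. CXADR, a tight junction receptor, had a TPM of 23.2 and 9.47 against 0.921 and 0.568, and PTGS1, a cyclooxygenase, 34.9 and 19.5 against 4.28 and 3.71. The 19 genes on the GOM side had PC1 differences of 11.7 to 27.8. Of these, WT1, PKHD1L1, UPK1B and CRB2 are on the mesothelial list and are themselves part of its summed TPM given above.

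On the ULB side, 11 genes changed together in shifted bins, with developmental regulators among them. ZIC1, a zinc finger transcription factor of dorsal mesoderm and neural tissue, had a PC1 of -32.5 and -25.1 in GOM against 4.19 and -8.27 in ULB. Its TPM was 0 in both GOM libraries and 23.0 and 12.1 in ULB, at least 88.4-fold higher in ULB with 3 counts per library as the floor (edgeR, adjusted p = 0.0133). ZIC4 shares its bin and had a TPM of 0 in both GOM libraries and 2.90 and 0.841 in ULB, which missed the threshold (adjusted p = 0.0512). Both lie in a run of 21 bins, chr13:87660001-88080000. EN1, a homeobox factor of dermomyotome and ectoderm, had a PC1 of 4.00 and 5.03 in GOM against 26.6 and 21.5 in ULB, and a TPM of 0.0479 and 0 against 7.12 and 3.16 (adjusted p = 0.0293). PRRX1, a homeobox factor of mesenchyme, had a PC1 of 8.32 and 5.23 against 26.9 and 18.2, and a TPM of 6.34 and 4.62 against 73.3 and 37.5 (log2 fold change -3.19 ± 0.42 SE, adjusted p = 0.0224). Without GOM replicate 1 or 2 the adjusted p of EN1 was 0.116 and 0.0849 and that of PRRX1 0.129 and 0.0909, and for ZIC1 it was 0.0776 without GOM replicate 1.

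Among the other ULB genes, FGF10, a growth factor of mesenchyme that also acts in fat cell precursors, had a PC1 of -19.1 and -18.3 in GOM against 1.25 and -4.44 in ULB, and a TPM of 0.935 and 0.725 against 14.2 and 64.0 (log2 fold change -5.30 ± 0.71 SE, edgeR, adjusted p = 0.0228). BMP5 had a TPM of 0.356 and 0.866 against 5.82 and 8.19, at a PC1 of -27.4 and -24.2 against -12.0 and -9.05, so it stayed in B in both depots (-3.25 ± 0.59, adjusted p = 0.0485). GRIA4, a glutamate receptor subunit, and CTNNA2, a catenin of neurons, also stayed in B. CTNNA2 had the lowest PC1 of all these genes, -61.7 and -50.0 in GOM against -31.4 and -34.5 in ULB, with a TPM of 1.29 and 1.36 against 20.1 and 9.35. GALK2 (log2 fold change -1.47 ± 0.22 SE) and SNX7 (-1.50 ± 0.25) had the smallest differences in expression. RGS7BP and STEAP2 complete the group, whose PC1 differences ran from -26.8 to -14.5. PRPF39, a splicing factor, was the exception, with a PC1 higher in GOM (49.2 and 37.1 against 18.5 and 33.4) and a TPM lower there (26.9 and 26.5 against 77.7 and 104, -1.56 ± 0.24, adjusted p = 0.0325).

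**Figure D5:**
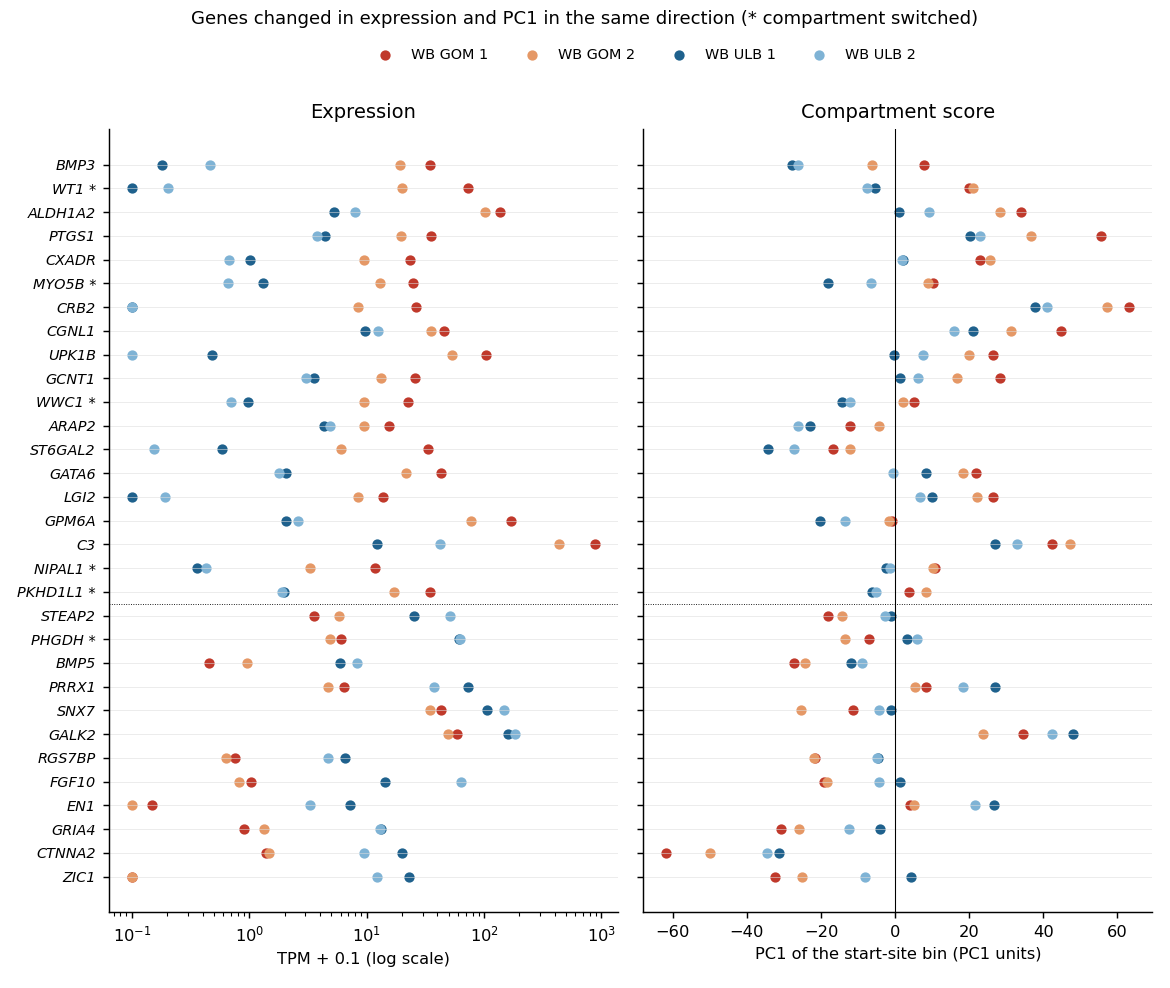
TPM plus 0.1 on a log scale (left) and PC1 of the start-site bin (right) in each of the 4 libraries of each assay for the 31 genes that changed together, with genes higher in GOM above the dotted line, genes higher in ULB below it, and switched bins marked with an asterisk. GOM points are red and orange and ULB points blue. The 31 genes were chosen by an edgeR call and by PC1 without overlap between depots, so the separation in the panels follows from the choice.

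The genes that changed together had few other genes nearby. They had a median of 1 other tested gene within 200 kb of the start site, and 10 of 31 had none (32.3%), against a median of 3 and 9.86% over all placed genes. For the 205 genes without a compartment change the median was 3, and 25 had none (12.2%). The mean PC1 of the bin had a median of 0.204 for the genes that changed together, 26.0 for those without a compartment change and 31.5 over all placed genes. Of the 31 genes, 11 were in A in all libraries, 9 in B in all, and 11 had a sign that differed between libraries. The classes were defined by PC1, so these PC1 values follow in part from the definitions. A switched bin has both signs, and a bin without a compartment change has one sign in all libraries. Gene length had a median of 75.7 kb against 34.3 kb and 30.8 kb.

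Within 200 kb of the 31 genes lay 49 other tested genes. The PC1 difference of their bins had the sign of the called gene in 40 of 49 (81.6%), 33 of 37 beside GOM genes (89.2%) and 7 of 12 beside ULB genes (58.3%), and nearby bins are not independent in a contact map. Their log2 fold change had that sign in 24 of 49 (49.0%). Over all placed genes the PC1 difference was positive in 59.2% and negative in 40.8%, and the log2 fold change in 54.7% and 45.3%. Beside the 205 genes without a compartment change, 573 of 868 neighbours (66.0%) shared the sign of the fold change. Of the 49, 0 were called in the direction of the called gene, where the share of all placed genes was 1.31% for GOM and 0.863% for ULB. EN1 and C3 each had 1 neighbour called in the opposite direction. An example is EN1, whose neighbour MARCO, a scavenger receptor of macrophages, was higher in GOM with TPM of 63.4 and 13.7 against 0.281 and 0.627 (edgeR, adjusted p = 0.0197), while its PC1 was lower in GOM (-9.17 and -7.92 against -2.72 and -3.24). C3 had 10 tested neighbours, of which 10 had a higher PC1 in GOM and 7 a positive log2 fold change.

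The larger class was that of genes called in bins with one sign and a PC1 difference under the threshold. With PC1 scaled by the chromosome SD the class held 198 genes, against 205 without scaling. Smaller PC1 differences remained in the class of 205. The depots did not overlap in PC1 for 57 of the 123 GOM genes in the direction of expression and for 12 against it. For the 82 ULB genes these counts were 27 and 11. Over all placed genes, PC1 was higher in GOM without overlap for 26.2% and higher in ULB without overlap for 14.5%. EZR, a linker of the membrane to actin, had a TPM of 295 and 305 in GOM against 40.1 and 56.8 in ULB (log2 fold change 2.85 ± 0.31 SE, edgeR, adjusted p = 0.0126), at a PC1 of 85.0 and 74.1 against 83.6 and 79.4. WNT16, a WNT ligand, had a TPM of 40.0 and 54.7 against 2.91 and 2.14 (4.43 ± 0.39, adjusted p = 0.00802), at a PC1 of 2.17 and 3.91 against 3.57 and 0.132. CFB, a complement protease of the alternative pathway, had a TPM of 104 and 82.2 against 2.45 and 8.61 (4.31 ± 0.55, adjusted p = 0.0204), at a PC1 of 51.4 and 52.4 against 46.5 and 50.8. PTPRQ, a receptor phosphatase, lay in B throughout, with a PC1 of -27.05 and -26.7 in GOM and -32.5 and -27.5 in ULB, and still had a TPM of 20.6 and 11.3 against 0.630 and 0.831 (4.63 ± 0.36, adjusted p = 0.00683). EZR and PTPRQ were chosen as examples after their values were seen.
SERPINE3, a serpin, had a TPM of 32.8 and 14.3 in GOM and 0 in both ULB libraries, at least 163-fold higher in GOM, with a PC1 of 28.6 and 23.1 against 22.1 and 18.7. The transcription factor GATA5 had a TPM of 22.5 and 9.24 against 0.0424 and 0.0427 (adjusted p = 0.00729) and a PC1 of 33.3 and 33.8 against 25.2 and 26.7, a difference below the threshold although the depots did not overlap. The same held for TCF21 (13.5 and 14.3 against 0.169 and 2.29), RSPO1 (42.9 and 35.1 against 26.7 and 23.6) and LRP2 (14.5 and 19.8 against 0.739 and 6.49). In SERPINB2 the PC1 went the other way, with -16.7 and -16.3 in GOM against -9.64 and -5.13 in ULB, at a TPM of 25.2 and 15.5 against 0.136 and 0.0813 (adjusted p = 0.00683).

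On the ULB side, the class without a compartment change held IRX2, a homeobox factor, and MMP1, a collagenase, which had a TPM of 0 in both GOM libraries and were at least 20.7-fold and 14.6-fold higher in ULB. ANGPTL5, an angiopoietin-like protein, had a TPM of 24.9 and 64.8 in ULB against 0 and 0.353 in GOM (edgeR, adjusted p = 0.0195), at a PC1 difference of -12.6. KERA, a keratan sulfate proteoglycan, had a TPM of 89.3 and 68.6 in ULB against 2.04 and 1.24 in GOM (log2 fold change -5.43 ± 0.39 SE, edgeR, adjusted p = 0.00683), at a PC1 of 17.6 and 8.35 in ULB and 10.6 and 12.3 in GOM. THBS4, a matrix thrombospondin of tendon and muscle, had a TPM of 92.7 and 161 in ULB against 1.09 and 2.59 in GOM (-5.83 ± 0.55, adjusted p = 0.00907), in B in both depots. COMP, a related matrix protein of cartilage and tendon, had a TPM of 19.9 and 7.18 in ULB and 0 in both GOM libraries, at least 117-fold higher in ULB (adjusted p = 0.0204), at a PC1 of 76.7 and 70.0 against 75.5 and 66.6. The HOX genes HOXC9 and HOXD8 were the called members of their family, and both lay in A throughout. HOXC9 had a TPM of 6.36 and 6.96 in ULB against 0.340 and 0.206 in GOM at a PC1 difference of 0.127. HOXD8 had a TPM of 79.1 and 78.5 against 7.65 and 9.42 (-3.00 ± 0.30, adjusted p = 0.0099) with a PC1 difference of -11.1.

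Of the 205 genes, 167 lay in A and 38 in B. Their PC1 difference had the sign of the fold change in 91 of 123 on the GOM side and in 55 of 82 on the ULB side, where 59.2% of all placed genes had a positive and 40.8% a negative difference. Without GOM replicate 1, 19 of the 205 remained called, without GOM replicate 2 88, without ULB replicate 1 106 and without ULB replicate 2 98.

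Some genes in switched or shifted bins had little difference in expression. An absolute log2 fold change below 0.5 was found for 26 of the 65 genes in bins switched to A in GOM (40.0%), for 14 of the 49 switched to A in ULB (28.6%), and for 52.8% of all placed genes. In shifted bins it was found for 99 of 183 genes towards GOM (54.1%) and for 15 of 68 towards ULB (22.1%). ARHGAP24, a GTPase regulator, had the largest PC1 difference of all genes in switched bins. Its PC1 was -6.28 and -8.65 in GOM and 30.6 and 21.3 in ULB, in a run of 47 shifted bins, chr8:132720001-133660000. Its TPM was 10.2 and 11.3 against 15.1 and 19.4 (log2 fold change -0.47 ± 0.29 SE, edgeR, adjusted p = 0.391). TLR4, the lipopolysaccharide receptor, was in B in GOM (-7.00 and -13.5) and in A in ULB (13.0 and 17.4), with a TPM of 30.7 and 26.4 against 44.2 and 33.7 (-0.27 ± 0.27, adjusted p = 0.588). On the GOM side EIF3M, ZNF331, PRRG4, MAL2 and GPR63 had PC1 differences of 15.3 to 17.6 at absolute log2 fold changes below 0.5. The longest run of shifted bins with a tested gene, chr4:101680001-102820000 with 57 bins higher in ULB, held 3 of them, WARS2, HAO2 and SPAG17, of which 0 were called.

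Runs of at least 5 neighbouring shifted bins numbered 51 towards GOM and 91 towards ULB. A tested gene lay in 23 of the GOM runs and in 17 of the ULB runs, and the longest run of all, chr7:118060001-119280000 with 61 bins higher in ULB, held 0. The 32 genes in GOM runs included 10 called higher in GOM and 0 in ULB, and the 22 genes in ULB runs included 6 called higher in ULB and 0 in GOM. Over all placed genes, 1.31% were called higher in GOM and 0.863% higher in ULB.

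Of 13 visceral transcription factors, 6 were called higher in GOM and 0 in ULB, with a median log2 fold change of 4.3, against 0.0242 over all genes tested, and a median PC1 difference of 7.8, against 0.991 over all placed genes. Over all genes tested, 1.22% were called higher in GOM and 0.748% higher in ULB. In 9 of the 13 PC1 was higher in GOM without overlap, against 26.2% of all placed genes, and in 0 it was lower, against 14.5%. These lists were chosen with depot differences of such genes known, so their direction is not independent evidence. Of the 6 called factors, WT1 and GATA6 changed together with the compartment, and BNC1 and ISL1 fell in neither class. GATA5 and TCF21 fell in the class without a compartment change, with a PC1 higher in GOM without overlap but a difference below the threshold. TBX5 and TBX18, T-box factors, were higher in ULB without overlap but were not called (log2 fold change -4.59 ± 1.08 and -1.56 ± 0.48 SE, edgeR, adjusted p = 0.087 and 0.145). HAND2, a factor of heart and lateral mesoderm, lay in a shifted bin (-7.08 and 1.66 in GOM against -13.6 and -22.2 in ULB) and had a TPM of 26.4 and 10.8 against 0 and 0.948, which missed the threshold (edgeR, adjusted p = 0.0551). NR2F1 and NR2F2, nuclear receptors of the COUP-TF family, were not called, with PC1 differences of 0.933 and 3.92.

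Of 14 subcutaneous patterning factors, 4 were called higher in ULB (EN1, SIM1, PRRX1, ZIC1), against 0.748% of the genes tested, and 0 in GOM, against 1.22%. Their median log2 fold change was -2.89 and their median PC1 difference -8.11. Of the 14 bins, 11 were higher in ULB without overlap, against 14.5% of all placed genes, and 1 was higher in GOM, against 26.2%. IRX1 and IRX5, homeobox factors, missed the threshold in expression (edgeR, adjusted p = 0.0774 and 0.0955). IRX1 lay in a switched bin, with a PC1 of -1.48 and -7.43 in GOM and 9.74 and 5.68 in ULB, and IRX5 in a shifted bin, with -15.3 and -14.2 against 9.34 and -1.84. SIM1 was called without a compartment change (a PC1 difference of -4.89, adjusted p = 0.0395).

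Lists of other cell types and pathways varied in both readouts. For comparison, 1.22% of all genes tested were called higher in GOM and 0.748% higher in ULB. The median PC1 difference over all placed genes was 0.991. Of 15 macrophage genes, 4 were called higher in GOM (MARCO, C1QB, TIMD4, ITGAM) at a median PC1 difference of -0.255. Of 12 complement genes, 5 were called higher in GOM (C3, C4A, CFB, CFI, CLU) at a median of 0.987. All 3 tested red cell genes, HBB, ALAS2 and AHSP, were called higher in GOM, with HBB at 7842 and 12500 TPM against 2299 and 1953. Of 13 T cell genes 0 were called, although 11 did not overlap between depots and differed by more than 2-fold between them, higher in GOM, against 10.6% of the genes tested, while 0 of 13 did so higher in ULB, against 9.99%. In the mesothelial list 6 of 8 tested genes were called higher in GOM and the median PC1 difference was 10.8, while KRT18 and CALB2 were not called. In the WNT and BMP list of 40 tested genes, 6 were called higher in GOM (WNT2B, WNT5A, WNT9A, WNT16, RSPO1, BMP3) and 1 higher in ULB (BMP5), and of these BMP3 and BMP5 changed together with the compartment. Of 26 HOX genes the 2 named above were called, of 21 progenitor and matrix genes 1 was called in each direction, and of 32 adhesion and axon guidance genes 1 (ROBO2, higher in ULB). In the lists for B cells (10 tested), chemokines (18), endothelium (13), skeletal muscle (5), smooth muscle (6), Schwann cells (5), liver (7), pancreas (2) and skin (1), 0 genes were called.

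The 31 genes were also read in Bama pigs, animals that took no part in the choice, with 2 GOM libraries and 1 ULB library in each assay and therefore no test. Of the 19 genes higher in GOM, 19 had a TPM above the ULB library in both GOM libraries, and 17 also had a higher PC1 in both. Over all placed genes these shares were 64.4% for expression and 24.2% for both readouts. TPM was compared here without further normalization between libraries. Of the 12 genes higher in ULB, 12 had a lower PC1 in both GOM libraries and 11 also a lower TPM in both, against 11.1% for expression and 5.19% for both readouts over all placed genes. WT1 had a TPM of 83.7 and 46.1 in Bama GOM against 0.253 in ULB, at a PC1 of 25.6 and 35.6 against -11.8. PTGS1 had a PC1 that was lower in both GOM libraries, that of CRB2 overlapped, and the expression of BMP5 overlapped. Of the 205 genes without a compartment change, 117 of 123 and 61 of 82 kept the direction of expression in both GOM libraries, and 10 of the 82 were opposite. Their PC1 lay in the direction of expression for 66 of 123 (53.7%, against 35.6% of all placed genes) and 53 of 82 (64.6%, against 39.4%), and both readouts did for 51.2% and 48.8% (against 24.2% and 5.19%).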

How the data were processed

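The authors extracted RNA from whole tissue, made strand-specific libraries depleted of ribosomal RNA and quantified protein-coding genes of Ensembl 102 (Sscrofa 11.1) with Kallisto (version 0.43.0 in the submitters' processing notes), and deposited estimated counts and TPM per library. For Hi-C (in situ, MboI) the authors used Juicer with KR and quantile normalization, and deposited one compartment score per 20-kb bin and library, read here as PC1. No contact counts were used here, and the Hi-C depth that the paper reports was not compared between libraries. Both depots are stated to come from the same pigs, but the labels do not tie a replicate number to an animal, and the p-values measure the spread between these libraries.

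Counts were rounded, filtered (TPM above 0.1 in both libraries of a depot) and tested in edgeR 4.0.16 (TMM, quasi-likelihood, adjusted p below 0.05 and fold above 2, Benjamini-Hochberg over 16183 genes). The SE of a log2 fold change was not estimated directly. It was derived as the absolute log2 fold change over the square root of edgeR's F statistic. PC1 was tested in limma 3.58.1 over 113298 autosomal bins. Genes were placed by symbol on the RefSeq annotation of Sscrofa 11.1 (61.6% of the table on autosomes). A floor of 3 counts per library bounds folds against a depot at 0, and intervals of counting error were not computed. Both fits were tested on simulated data (R 4.3.3), where the share of false calls by edgeR was above the nominal level, more so with the block, and limma recovered hardly any PC1 differences near 14.27, so its count of 0 bins does not show that no bin differed. Other tools were Python 3.11.15 and pandas 2.3.3. Alternatives were DESeq2 1.42.0, other normalizations, filters, bins and libraries. The members and gene lists were chosen with earlier results of these data known. Named genes were up to 10 per direction by absolute log2 fold change among genes that changed together and among those without a compartment change (mean TPM of at least 1, depots not overlapping), up to 5 that changed opposite, up to 5 per direction by PC1 difference in switched bins at an absolute log2 fold change below 0.5, and up to 4 per list. The others named were chosen after their values were seen.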

Additional observations from a re-analysis of the deposited data

How the results depend on the processing

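The groups hold 2 libraries each, and the counts of called genes depended on the tool and on single libraries. DESeq2 called 1318 genes (768 higher in GOM, 550 in ULB), 907 of them without a compartment change. It gave 23 together and 2 opposite in switched bins, 51 and 4 in shifted bins, and 378 and 109 where PC1 did not overlap. Without the TPM filter edgeR called 608 (369 and 239), 397 without a compartment change, 10 together in switched bins, 46 in shifted bins, and 203 together and 49 opposite without overlap. In a fit of all 7 libraries 62 were higher in ULB, 134 had no compartment change and 13 were opposite without overlap. The replicate numbers are not tied to animals in the labels, and same-numbered libraries deviated together only weakly (r 0.173 for expression, 0.024 for PC1). With the replicate number as a block, 1623 genes (961 and 662) and 502 bins were called, 226 of them higher in GOM, with 9 genes together by limma, 1098 without a compartment change, 13 with a compartment change alone, 30 together and 2 opposite in switched bins, 57 and 4 in shifted bins, and 453 and 141 without overlap.

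Leaving out each library in turn gave 46 to 258 called genes (36 to 168 in GOM, 10 to 125 in ULB), 0 to 869 bins by limma, 3767 to 4907 switched and 4491 to 8861 shifted bins, 3837 to 4385 genes separated in expression, 0 to 8 genes together and 0 to 1 opposite by limma, 20 to 153 without a compartment change, 0 to 35 with a compartment change alone, 4 to 16 together and 0 to 1 opposite in switched bins, 9 to 33 and 0 to 2 in shifted bins, 25 to 136 and 4 to 25 without overlap, and a rho of 0.106 to 0.143. A depot left with 1 library was assumed to vary like the other. For PC1, subtracting the chromosome median gave 1 opposite gene in switched bins and a rho of 0.107, scaling by the SD a rho of 0.101, the 5-bin mean 21 called bins and 1 gene together, and the gene-body mean 10 genes together in switched bins and 0 opposite in shifted bins. Pearson's r was 0.196, and PC1 of number 1 against expression of number 2 gave 0.06. The log2 fold change turned sign for PCK1 without GOM replicate 1 (-0.793, at most 3.306 over the libraries left out), for APOA1 likewise (0.00514, from -0.1598), for CD79A (-0.1273, to 1.983), FGB (-0.1026, to 0.5111), CNN1 (-0.4666, to 3.594), DES (-1.415, to 4.002) and MYH11 (-0.508, to 1.965) without GOM replicate 2, and for MS4A1 (0.1579, from -1.85), CKM (0.7211, from -4.776) and FGB (-0.02701) without ULB replicate 1. The PC1 difference turned for PI16 (-0.005744) and CFB (-0.01088) after scaling. None of these is among the 31 genes, and beyond the number of libraries the causes were not tested.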
